A study of Mus musculus with 7 samples.

Results

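The cytoplasmic ribosomal proteins are the protein parts of the ribosome that translates the messenger RNA of the nuclear genome. They were taken here by gene symbol: Rpl or Rps followed by a digit, plus Rpsa, Rplp0, Rplp1 and Rplp2, without symbols ending in -ps (32 left out) and without the ribosomal protein kinases. The rule found 84 of the 12151 genes listed. Of these, 75 encode core proteins of the ribosome, 45 of the large and 30 of the small subunit. The other 9 that the symbols took in are 3 paralogs (Rpl7l1, Rpl22l1 and Rps27l), 5 retrocopies (Rpl6l, Rpl37rt, Rps4l, Rps23rg1 and Rps27rt) and Rps19bp1, which binds a ribosomal protein and is none itself.

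Messenger RNA was sequenced from hepatocytes isolated from mouse liver, in 4 libraries labelled ALAS1/2-KO and 3 labelled WT. ALAS1 and ALAS2 carry out the entry step of heme synthesis. In the ALAS1/2-KO group, exons 4 to 5 of Alas1 were flanked for deletion by an inducible Cre, Alas2 was depleted by a GalNAc-coupled siRNA, and the treatment label is tamoxifen. The WT libraries have the treatment label non. Effects of the genotype, of tamoxifen and of the siRNA therefore cannot be told apart. The sources used here give neither the promoter that drives Cre nor the age of the mice.

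Every ribosome carries a single copy of nearly all its proteins, and the genes for them are expressed in tight proportion to each other. In mammals their messages begin with a run of pyrimidines at the 5′ end, the TOP motif, through which the kinase mTORC1 and the binding protein Larp1 set their translation. The amount of message therefore says little about the rate at which it is translated, and only the message was measured here. Hepatocytes are rich in ribosomes, since the liver makes most of the plasma proteins.

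The starts of 5 members are printed to show runs of pyrimidines near the start site and a member in which the longest run is short. Each window covers 20 bases before and 10 bases from the RefSeq start site (GRCm38.p6), 5′ to 3′ on the gene's strand, and the capitals mark the longest run of pyrimidines in the window. Rplp2 lies at chr7:141447631-141447660 (plus), Rpl31 at chr1:39367831-39367860 (plus), Rps27 at chr3:90213639-90213668 (minus), its paralog Rps27l at chr9:66946066-66946095 (plus) and Rpl41 at chr10:128549159-128549188 (minus).
Rplp2: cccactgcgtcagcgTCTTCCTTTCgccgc
Rpl31: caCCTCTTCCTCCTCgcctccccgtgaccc
Rps27: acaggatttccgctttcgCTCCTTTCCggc
Rps27l: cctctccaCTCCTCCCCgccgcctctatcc
Rpl41: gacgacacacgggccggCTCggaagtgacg
The runs are 10, 13, 9, 9 and 3 bases long in the order printed. In Rplp2 and Rps27 the run spans the RefSeq start site. In Rpl31, Rps27l and Rpl41 it ends before that site, so by this annotation it lies outside the message. A shorter run of pyrimidines spans the site in Rpl31.

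A promoter was given for 61 members, 55 of them core. A pyrimidine run of at least 8 bases within 25 bases on either side of the start was present in 26 of the 55 core genes (47.3%), against 1722 of 9259 other listed genes (18.6%). The motif CCGGAAG, bound by ETS-family factors, was present on either strand of the 300-base promoter in 22 core genes (40%) and in 18.8% of the other genes. AGATGGC, bound by YY1, was found in 10.9% of core genes and 7.36% of the others, and TATAAA in 9.09% and 7.42%. A match says only that these letters are in the window. Rplp2, Rpl31, Rps27l and Rpl41 hold CCGGAAG, and Rps27 holds AGATGGC.

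The libraries held 27933939 to 30195635 listed reads in ALAS1/2-KO and 22916097 to 34048680 in WT, and 1 read was worth 0.0293 to 0.0522 CPM. Rps23rg1, the member with the lowest level, had 1.09 to 2.06 CPM in ALAS1/2-KO and 1.07 to 1.98 CPM in WT. Alas2 stood at 0.33, 0.80, 0.43 and 0.20 CPM in ALAS1/2-KO, against 16.9, 10.3 and 6.65 CPM in WT (limma adjusted p = 0.0027). Alas1 stood at 287, 332, 307 and 361 CPM in ALAS1/2-KO, against 280, 265 and 83.5 CPM in WT (log2 fold change 0.80, adjusted p = 0.277, and 0.24 with an adjusted p of 0.309 without WT replicate 3). A whole-gene value does not check the deletion of part of it. WT replicate 3 stands apart from the other WT libraries for Alas1 and for the ribosomal proteins, and values without it are given beside several of the main results. The 6 hepatocyte markers were abundant in every library and moved both ways, with a median log2 fold change of 0.20. Alb passed as lower, at 49930 to 55980 CPM in ALAS1/2-KO and 93950 to 100200 CPM in WT (adjusted p = 0.00606). Apoa1 had 7193 to 8812 CPM in ALAS1/2-KO and 5662 to 6620 CPM in WT. All listed markers of macrophages, endothelial cells and stellate cells were lowest in ALAS1/2-KO replicate 1. The 6 macrophage markers summed to 185 to 1183 CPM in ALAS1/2-KO and 679 to 950.3 CPM in WT, the 5 endothelial ones to 46.7 to 200 and 194 to 235 CPM, and the 5 stellate ones to 32.8 to 161 and 139 to 251 CPM. None of the 3 T cell markers is listed, and the 3 listed red cell markers summed to at most 6.3 CPM in ALAS1/2-KO and 36.5 CPM in WT. Cd79a (B cells), Spp1 (cholangiocytes) and Hbb-bt (red cells) passed as lower, with limma adjusted p of 0.0335, 0.0076 and 0.0483. They were 1 each of 3, 2 and 3 markers tested, where 2.19% of all genes were lower. The part of these cells in the results below was not tested, and in bulk RNA fewer cells of a type and less RNA per cell cannot be told apart.

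Messages of the ribosomal proteins were abundant in both groups and differed from each other far more than the groups did. Per kilobase of transcript, the median core gene stood at 107 CPM in ALAS1/2-KO and 120.5 CPM in WT, and the quartiles of the core genes were 75.9 and 141 CPM in ALAS1/2-KO and 89.6 and 160 CPM in WT. The highest was Rplp1 of the large-subunit stalk, at 421 CPM per kilobase in ALAS1/2-KO and 553 in WT. Rpl41, the smallest ribosomal protein, came next with 265 CPM per kilobase in ALAS1/2-KO and 370.0 in WT. Rps15, which acts in export of the small subunit from the nucleus, had 205 in ALAS1/2-KO and 257 in WT, and Rpl10, which joins the large subunit last and is needed for the subunits to meet, had 217 and 250.3. The retrocopies and Rps19bp1 lay at the bottom of the same scale, with Rps19bp1 at 6.08 CPM per kilobase in ALAS1/2-KO and 6.87 in WT.

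Rpl13a, a core protein, had only 6.28 CPM per kilobase in ALAS1/2-KO and 7.08 in WT. Between 18.4% and 27.5% of the reads of its family were on 1 near-identical listed copy, Gm11478, so its level is uncertain. Rps20 had 14.3 and 15.8 CPM per kilobase, a value that rests on the 3706-nt transcript chosen for it. In reads alone, Rpl4 was highest, with 314, 295, 258 and 273 CPM in ALAS1/2-KO, against 311, 306 and 261 CPM in WT, and the 2 groups overlap.

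No member passed the test in either direction. In limma, 0 of the 84 were higher and 0 were lower at an adjusted p under 0.05, where 2.91% of all 12105 genes tested were higher and 2.19% were lower. Limma voom on the recovered reads also called 0. At an unadjusted p under 0.05, 18 members (21.4%) were lower, where the share over all genes was 11.9%, and 0 were higher, where it was 11.8%. All 84 were above the filter on low values. Members of both subunits lay mostly a little below zero on the deposited scaling, and this sign depends on the scaling, as given with the sums over the family.

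On the deposited scaling the members' log2 fold changes had a median of -0.18, which is 11.7% lower in ALAS1/2-KO, beside -0.02 for all genes. A negative value was found for 82 of the 84 members (97.6%), where 52% of all genes had one. The core genes of the small subunit had a median of -0.20 and those of the large subunit -0.17. The quartiles of the members were -0.27 and -0.13. Over all genes they were -0.25 and 0.19, so that 31.6% of all genes were below the members' median. Single members ran from -0.81 (Rpl26) and -0.65 (Rps4l) to 0.07 (Rps23rg1).

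**Figure D1:**
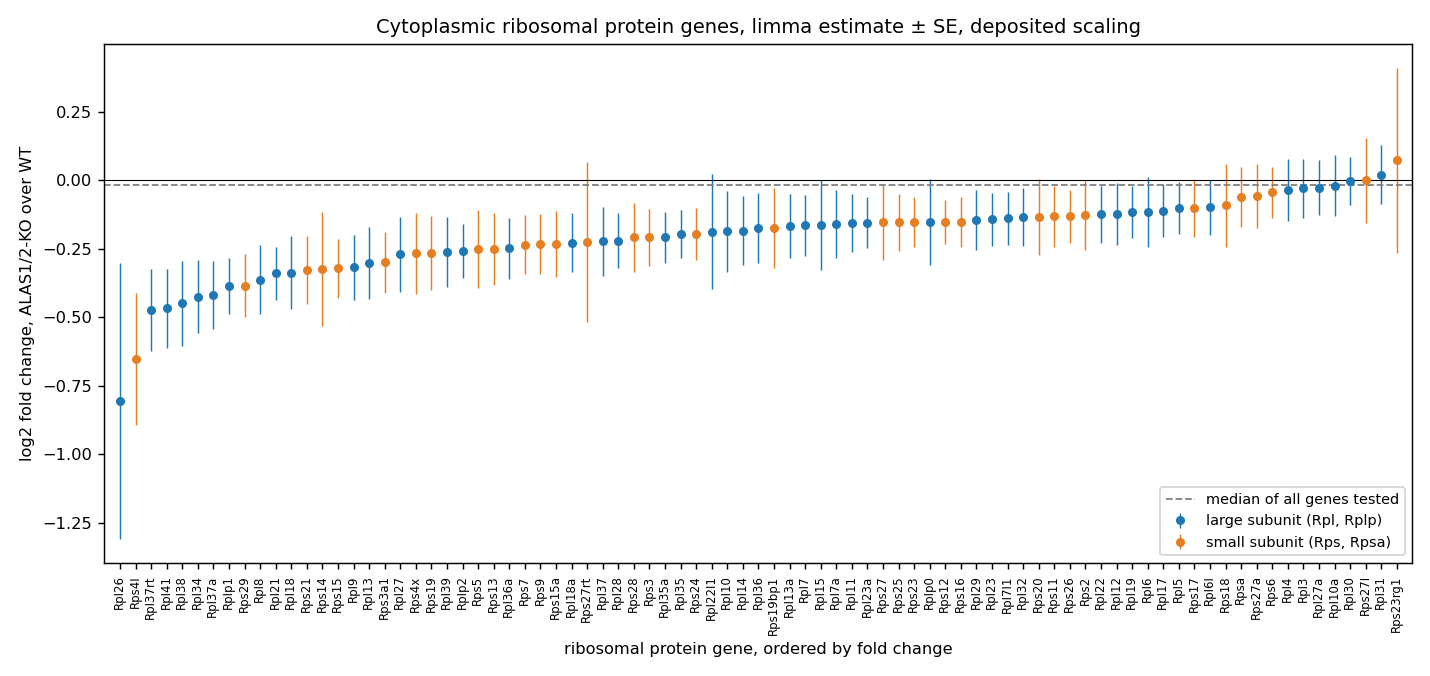
Log2 fold change of ALAS1/2-KO over WT (vertical axis, limma estimate, bars ± SE) for 83 of the 84 ribosomal protein genes in order of size (horizontal axis), large subunit in blue and small subunit in orange; the dashed line is the median of all genes tested, -0.02. All but 2 genes lie below zero on the deposited scaling, with a median of -0.18, which turns to 0.15 when CPM are rescaled to all listed reads.

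The level of the whole family turned with the denominator. On the deposited scaling the members summed to 6789, 6954, 6517 and 6499 CPM in ALAS1/2-KO, against 8217, 8194 and 6662 CPM in WT. Means were 6690 ± 220 CPM in ALAS1/2-KO and 7691 ± 891 CPM in WT (SD, n = 4 and 3). WT replicate 3 lies within the ALAS1/2-KO range and the other WT libraries lie above it.

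As a share of listed reads outside the mitochondrial genome, the family took 0.966%, 1.01%, 0.971% and 0.936% in ALAS1/2-KO, against 1.12%, 1.16% and 0.98% in WT. Of all listed reads it took 0.804%, 0.755%, 0.706% and 0.695% in ALAS1/2-KO, against 0.687%, 0.656% and 0.668% in WT, so every ALAS1/2-KO library was above every WT library. The mitochondrial genome itself took 16.8%, 25.25%, 27.3% and 25.8% of listed reads in ALAS1/2-KO, against 38.4%, 43.2% and 31.9% in WT. With CPM rescaled to all listed reads, the median log2 fold change was 0.32 over all genes and 0.15 over the members. The members' median was thus 0.16 below that of all genes, as it was on the deposited scaling, and between 0.13 and 0.28 below it under every setting run.

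**Figure D2:**
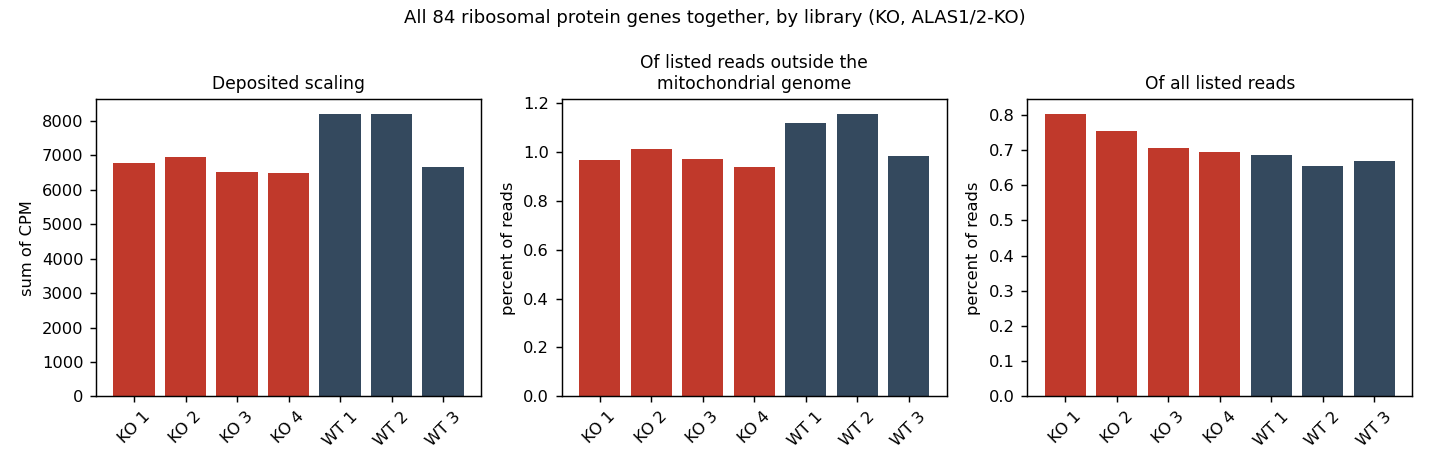
Sum over the 84 ribosomal protein genes in each library (bars; 4 ALAS1/2-KO in red, 3 WT in dark blue), as CPM on the deposited scaling, as percent of listed reads outside the mitochondrial genome and as percent of all listed reads. On the first scale WT replicates 1 and 2 are highest at 8217 and 8194 CPM, and on the last ALAS1/2-KO replicate 1 is highest at 0.804%.

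The sum over large-subunit genes was 1.37 ± 0.014 times that over small-subunit genes in ALAS1/2-KO and 1.37 ± 0.0097 times in WT (SD, n = 4 and 3). This ratio does not depend on the scaling, and the groups differed by less than their spread. The members also varied little within the ALAS1/2-KO group. Each gene's own SD between those 4 libraries had a median of 0.089 on the log2 scale over members, and 0.21 over all genes. The sets were not matched for level. In WT the members' median SD was 0.19, where that of all genes was 0.18.

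WT replicate 3 set much of the WT spread. In 77 of the 84 members (91.7%) it was the lowest of the WT libraries, as it was in 36.3% of all genes. Measured from the WT mean, the median member stood at -0.17, -0.12, -0.23 and -0.24 on the log2 scale in ALAS1/2-KO, and at 0.09, 0.11 and -0.20 in WT. In 49 members (58.3%) WT replicates 1 and 2 lay above every ALAS1/2-KO library while WT replicate 3 did not, a pattern shown by 7.16% of all genes. The groups did not overlap, with ALAS1/2-KO below, in 18 members (21.4%), where 11.4% of all genes had that pattern. The opposite pattern was shown by 0 members, where 11.3% of all genes had it. Without WT replicate 3 the members' median was -0.30 and 3 members passed as lower (Rpl38 and Rpl41 among them), where 0.891% of all genes did. The core medians were then -0.30 for the large and -0.31 for the small subunit. With limma array weights, which weigh each library by its fit to its group, 21 members passed as lower, where 8.02% of all genes did.

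The proteins of the stalk, the arm of the large subunit that binds the translation factors, differed among themselves. Rplp1 (mm10 chromosome 9, 61913284 to 61914542, minus strand) stood at 208, 207, 212 and 214 CPM in ALAS1/2-KO, against 292, 291 and 244 CPM in WT. On the deposited scaling the ALAS1/2-KO libraries lay close together and all below the lowest WT library. The log2 fold change was -0.39 (SE 0.10, limma adjusted p = 0.0692), and it was the member nearest to the threshold. Without WT replicate 3 Rplp1 had -0.47 (adjusted p = 0.0516). Its partner Rplp2 stood at 60.9, 65.1, 61.9 and 59.6 CPM in ALAS1/2-KO, against 69.9, 83.7 and 69.2 CPM in WT (log2 fold change -0.26, SE 0.10, adjusted p = 0.169). Without WT replicate 3 Rplp2 had -0.31 (adjusted p = 0.166). Rplp0, the stalk base, stood at 185, 192, 191 and 175 CPM in ALAS1/2-KO, against 251, 221 and 158 CPM in WT. For Rplp0 WT replicate 3 was below every ALAS1/2-KO library, and the difference did not pass (log2 fold change -0.15, adjusted p = 0.59). Without WT replicate 3 it was -0.35 with an adjusted p of 0.128.

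Rpl21 (chromosome 5, 146832890 to 146837032, plus strand), a large-subunit protein, stood at 27.4, 28.2, 24.8 and 26.3 CPM in ALAS1/2-KO, against 34.1, 36.6 and 30.8 CPM in WT. The groups did not overlap, and the log2 fold change of -0.34 (SE 0.096) had a limma adjusted p of 0.0844. Without WT replicate 3 Rpl21 had -0.41 (adjusted p = 0.0774). Between 31.5% and 36.0% of the reads of its family were on 3 near-identical listed copies. Summed with them, Rpl21 had a log2 fold change of -0.32 (adjusted p = 0.112). Rpl41 (chromosome 10, 128548114 to 128549305, minus strand) stood at 108, 129, 115 and 111 CPM in ALAS1/2-KO, against 175, 184 and 127 CPM in WT, where WT replicate 3 fell within the range of the ALAS1/2-KO libraries (log2 fold change -0.47, SE 0.14, adjusted p = 0.105). Without that library its log2 fold change was -0.63 and its adjusted p 0.0406. Rpl38, whose loss in mice alters the translation of Hox messages and the pattern of the skeleton, had 21.2, 24.6, 21.4 and 23.0 CPM in ALAS1/2-KO, against 35, 35.5 and 23.5 CPM in WT (log2 fold change -0.45, adjusted p = 0.131, and 0.0311 without WT replicate 3). Between 33.2% and 37.5% of the reads of its family were on 2 near-identical listed copies. Summed with them, Rpl38 had a log2 fold change of -0.43 (adjusted p = 0.150) with all libraries.

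**Figure D3:**
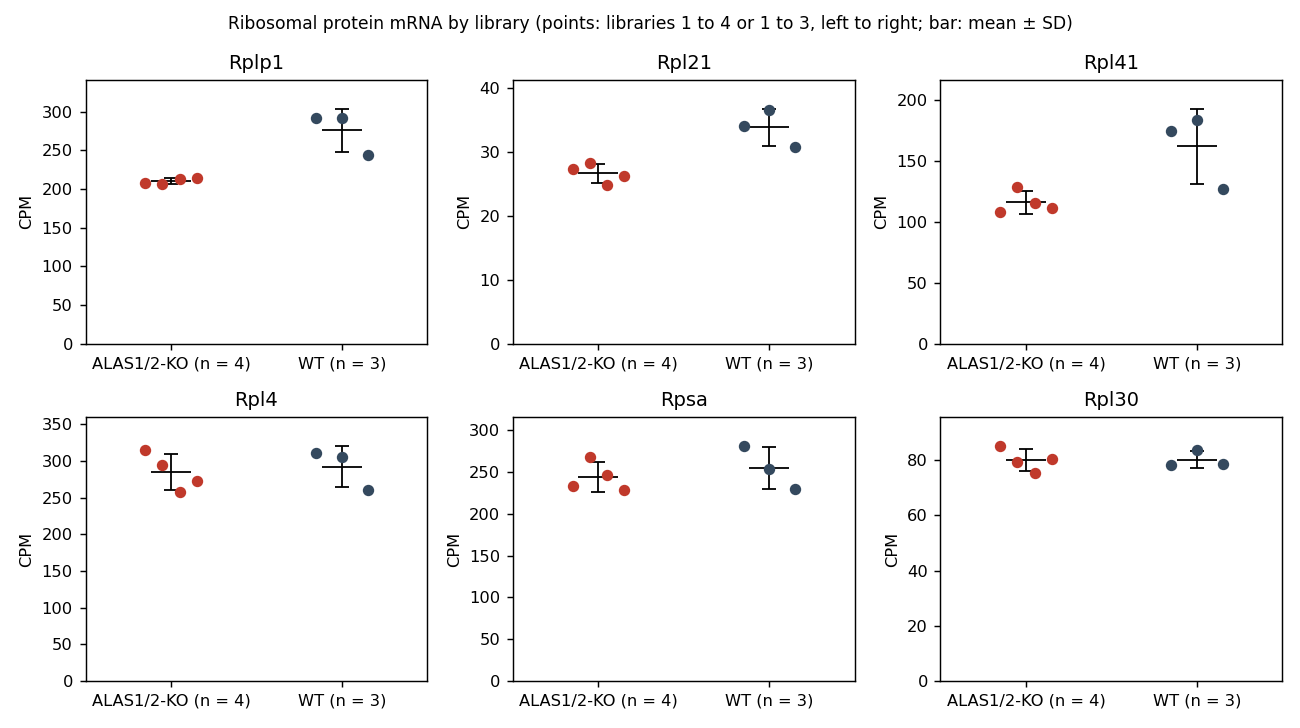
CPM on the deposited scaling (vertical axes, from 0) of 6 ribosomal protein genes in each library (points), with group mean ± SD, ALAS1/2-KO (n = 4) left of WT (n = 3). Rplp1 lies between 207 and 214 CPM in ALAS1/2-KO and between 244 and 292 CPM in WT, while the groups overlap for Rpl41, Rpl4, Rpsa and Rpl30.

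At the other end of the order, the groups were close. Rpsa, which also serves as a laminin receptor, stood at 233, 268, 246 and 229 CPM in ALAS1/2-KO, against 281, 254 and 230.1 CPM in WT (log2 fold change -0.06, SE 0.11, limma adjusted p = 0.772). Rpl30 stood at 85, 79.4, 75.3 and 80.3 CPM in ALAS1/2-KO, against 78.1, 83.6 and 78.8 CPM in WT. Its groups overlap throughout, with means of 80 ± 3.98 and 80.2 ± 3.02 CPM (SD, n = 4 and 3). Rpl31 was the only core gene with a value above zero on the deposited scaling, at 0.02 (SE 0.11). Rps6, the target of the S6 kinases below mTORC1, had means of 121 ± 5.39 CPM in ALAS1/2-KO and 125 ± 7.18 CPM in WT.

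Several ribosomal protein genes carry mutations in human Diamond-Blackfan anemia, a failure of red cell production. Of 19 such genes 18 were tested and 0 passed, where 2.91% of all genes were higher and 2.19% lower. With limma array weights 4 passed as lower, where 8.02% of all genes did. Their median log2 fold change was -0.20 in the main fit, close to that of the whole family. Rps19, the gene most often affected in people, had means of 58.0 ± 2.11 CPM in ALAS1/2-KO and 70.7 ± 13.5 CPM in WT. Its log2 fold change was -0.27 (limma adjusted p = 0.275), and -0.44 (0.0579) without WT replicate 3. Rpl5 and Rpl11, which with the small ribosomal RNA of the large subunit can bind and hold the p53 ligase Mdm2, had log2 fold changes of -0.10 and -0.16.

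Shorter messages had the more negative values. Across the 75 core genes the rank correlation of log2 fold change with transcript length was 0.32 (Pearson 0.33 with log length), a description across genes that share the same libraries. The 17 core genes of up to 500 nt had a median log2 fold change of -0.25, the 19 of 500 to 700 nt -0.23, the 22 of 700 to 1000 nt -0.21 and the 17 longer ones -0.14, on the deposited scaling. Without WT replicate 3 the rank correlation was 0.32 and the medians in the same order were -0.34, -0.35, -0.33 and -0.22.

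Other short messages lay below zero as well. The 758 other protein-coding genes of up to 1000 nt had a median of -0.15, and 21.5% of them were lower at an unadjusted p under 0.05, beside 21.3% of the core genes. They also had the same order of libraries. Measured from the WT mean their median stood at -0.13, -0.05, -0.16 and -0.22 in ALAS1/2-KO, and at 0.05, 0.09 and -0.14 in WT, so WT replicate 3 again lay with the ALAS1/2-KO libraries. The 10397 other genes over 1000 nt had a median of -0.0014. A negative value was found for 98.7% of the core genes and for 72.2% of the other short genes. Among genes over 1000 nt the core median was -0.14 beside that -0.0014. Without WT replicate 3 the other short genes had a median of -0.24 and the other genes over 1000 nt of -0.0022. The part of message length in the values of the family was not tested.

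**Figure D4:**
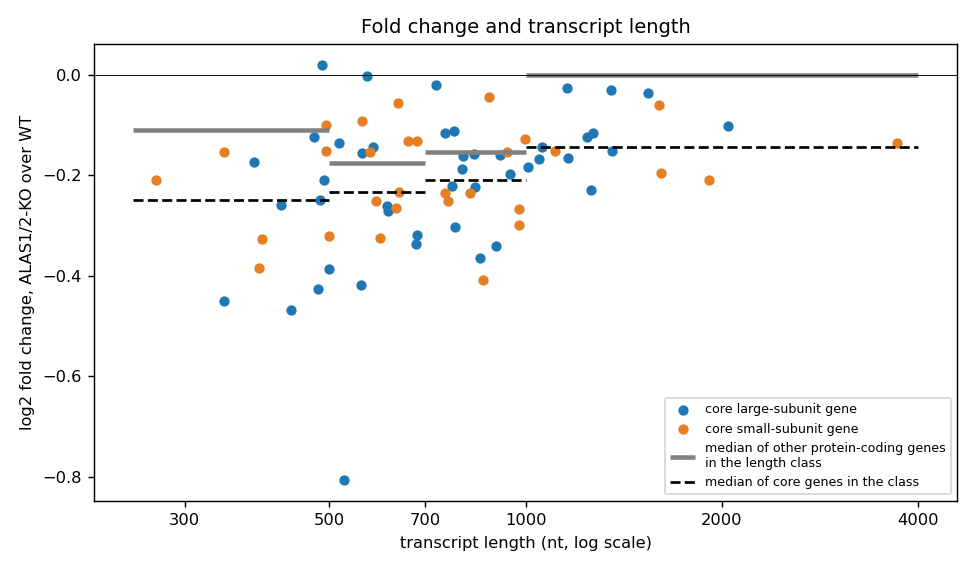
Log2 fold change of ALAS1/2-KO over WT on the deposited scaling (vertical axis) against transcript length in nt (horizontal axis, log scale) for the 75 core ribosomal protein genes, large subunit in blue and small subunit in orange. The medians of the core genes (dashed) are -0.25 up to 500 nt and -0.14 above 1000 nt, and those of other protein-coding genes (grey) are -0.11 and -0.0014.

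The lowest fold change of the family was that of Rpl26, whose level ran opposite to that of a near-identical copy. Rpl26 (ENSMUSG00000060938.14, mm10 chromosome 11, 68901583 to 68906989, plus strand) is a large-subunit protein that also binds the message of p53. Gm15772 (ENSMUSG00000062353.6, chromosome 5, 3236431 to 3236868, plus strand) is annotated as a processed copy without introns. Over the 435 coding nt they are 99.5% identical and differ at 2 bases, C177T and T288C (the base of Rpl26, its position from 1 at the first base of the start codon, then the base of Gm15772). The windows around both bases are printed to show how little of the sequence can tell the genes apart, with the differing base in capitals.
Rpl26, coding bases 162 to 191: agttcaggttgttcgCggacactacaaagg
Gm15772, the same stretch: agttcaggttgttcgTggacactacaaagg
Rpl26, coding bases 273 to 302: tggcacaaccgtccaTgtgggcatccaccc
Gm15772, the same stretch: tggcacaaccgtccaCgtgggcatccaccc

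Rpl26 stood at 17.8, 20.3, 51.1 and 17.2 CPM in ALAS1/2-KO, against 21.0, 64.5 and 53.1 CPM in WT. ALAS1/2-KO replicate 3 and WT replicates 2 and 3 were thus high, and the other 4 libraries low. Gm15772 ran the other way, at 81.3, 78.0, 37.9 and 70.6 CPM in ALAS1/2-KO, against 83.9, 49.1 and 40.1 CPM in WT. The copy held 82.0%, 79.4%, 42.6% and 80.4% of the reads of the pair in ALAS1/2-KO, against 79.95%, 43.2% and 43.0% in WT. The share of Rpl26 thus took 1 of 2 levels, and the level did not follow the group.

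The log2 fold change of Rpl26 was -0.81 with an SE of 0.50 (limma adjusted p = 0.377). Summed, the pair stood at 93.5 ± 5.98 CPM in ALAS1/2-KO and 104 ± 10.3 CPM in WT (SD, n = 4 and 3), with a log2 fold change of -0.15 (SE 0.11, adjusted p = 0.43), close to the median of the family. Among 11576 genes Rpl26 had the largest gap between these 3 libraries and the other 4 (1.28 on the log2 scale). Gm15772 had the largest in the opposite direction (0.52). Gm47283 (1.07) and Zfp608 (0.71) came next on the side of Rpl26, and Gm9826 (0.43) and Keg1 (0.39) on that of Gm15772. The cause of the split was not tested. This split of the libraries was chosen after the values were seen. Reads were also set against near-identical listed copies for the other members that have one, 48 with Rpl26, of which 3 (Rpl37, Rpl37rt and Rps27) have only another member as copy. Apart from Rpl26 the share on copies moved by at most 9.12 percentage points between libraries. All copies that are no members together amounted to 4.47% to 5.23% of the members' CPM in ALAS1/2-KO and 4.67% to 4.99% in WT.

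**Figure D5:**
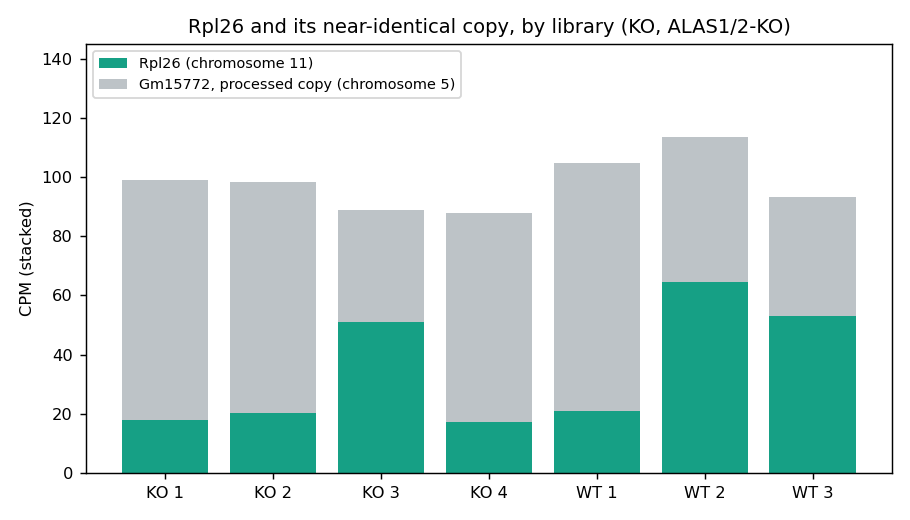
CPM on the deposited scaling of Rpl26 (green) and its near-identical copy Gm15772 (grey), stacked, in each of the 4 ALAS1/2-KO and 3 WT libraries. The stacks end at 87.8 to 114 CPM, while the part on Rpl26 is 17.2 to 21.0 CPM in 4 libraries and 51.1 to 64.5 CPM in the other 3.

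Paralogs and retrocopies were set against their parent genes as percent of the parent's CPM. The prior of 0.0676 CPM in the deposited values was kept here, and but for it the ratio needs no scaling. Rps27l, a paralog that p53 induces, had 90.8%, 87.7%, 88.6% and 74.5% of the CPM of Rps27 in ALAS1/2-KO, against 70.9%, 83.6% and 75.7% in WT. The groups overlap, and the difference of the log2 ratios was 0.15 (exact permutation p = 0.171, two-sided, adjusted over 4 pairs 0.457). Rps4l had 7.87%, 6.42%, 7.90% and 4.23% of Rps4x in ALAS1/2-KO, against 6.70%, 10.4% and 8.45% in WT (log2 ratio -0.38, exact permutation p = 0.229, adjusted 0.457).

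Rpl22l1, which can take the place of Rpl22 in the ribosome, had 27.9% ± 3.98 of its parent in ALAS1/2-KO and 29.3% ± 5.22 in WT, and Rpl7l1 had 17.6% ± 1.57 of Rpl7 in ALAS1/2-KO and 17.3% ± 1.62 in WT (SD, n = 4 and 3; adjusted exact permutation p = 0.8 for both). The libraries allow 35 regroupings, and this two-sided test doubles the p of the smaller tail. No pair could therefore reach a p under 0.05. Rps4l itself stood at 8.89, 7.42, 8.98 and 5.05 CPM in ALAS1/2-KO, against 11.4, 15.2 and 9.19 CPM in WT (log2 fold change -0.65, SE 0.24, limma adjusted p = 0.156). Of the other retrocopies, Rpl37rt had a log2 fold change of -0.47 (adjusted p = 0.111), Rps27rt of -0.23 and Rps23rg1 of 0.07, each at under 8 CPM in both groups.

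Fau, which yields the small-subunit protein Rps30 from a fusion to a ubiquitin-like protein, lies outside the symbol rule. It stood at 71.8, 77.5, 77.2 and 71.5 CPM in ALAS1/2-KO, against 96.4, 102 and 75.1 CPM in WT, the order of libraries seen in most members (log2 fold change -0.28, limma adjusted p = 0.207, and -0.42 with 0.0704 without WT replicate 3).

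Among 19 elongation and release factors and other messages listed as TOP messages, 0 passed, where 2.91% of all genes were higher and 2.19% lower. With CPM rescaled to all listed reads 1 was higher, where 20.9% of all genes were. At most 1 was lower in any setting. The median log2 fold change of these 19 was -0.01 in the main fit, beside -0.18 for the ribosomal proteins. That class was not checked against the start sequences of these genes. Eef1a1, which brings aminoacyl-tRNA to the ribosome, averaged 1806 ± 172 CPM in ALAS1/2-KO and 1714 ± 204 CPM in WT, and Eef2, the translocase, 697 ± 26.4 CPM in ALAS1/2-KO and 683 ± 98.7 CPM in WT. These lists share the 7 libraries with the ribosomal proteins, and the difference between the lists was not tested.

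In the lists upstream of the ribosome, 1 gene each passed as higher, beside 2.91% of all genes. With CPM rescaled to all listed reads, where 20.9% of all genes were higher, the counts were 7 of 39 genes of mTORC1 and TOP control, 11 of 40 initiation factors, 33 of 105 biogenesis genes and 4 of 20 genes of RNA polymerase I. On the deposited scaling, among the 39 genes of mTORC1 and the control of TOP messages, Mtor itself, the kinase, rose to 39.8 ± 2.51 CPM in ALAS1/2-KO, against 26.1 ± 3.32 CPM in WT (1.53-fold, limma adjusted p = 0.0234). Of 40 initiation factors, Pabpc4, a cytoplasmic poly(A)-binding protein, rose to 28.4 ± 3.67 CPM in ALAS1/2-KO, against 18.0 ± 2.79 CPM in WT (1.58-fold, adjusted p = 0.0369). Of 105 genes of ribosome biogenesis, Riok2, a kinase that matures the small subunit, rose to 18.1 ± 2.54 CPM in ALAS1/2-KO, against 11.9 ± 0.53 CPM in WT (adjusted p = 0.0353). Of 20 genes of RNA polymerase I, which transcribes the ribosomal RNA, Taf1d rose to 14.6 ± 2.68 CPM in ALAS1/2-KO, against 8.50 ± 1.04 CPM in WT (adjusted p = 0.0421). These calls on the deposited scaling were lost in several fits. Mtor lost its call without ALAS1/2-KO replicate 3 or 4 or WT replicate 1 or 2 (adjusted p = 0.0536 to 0.126), and Pabpc4 without ALAS1/2-KO replicate 3 or 4 or WT replicate 2 or 3 (0.0684 to 0.179). Riok2 lost its call without any 1 of these 5 libraries (0.0554 to 0.161), and Taf1d without any library but ALAS1/2-KO replicate 2 (0.052 to 0.185). Mtor and Taf1d also lost it with scaling by reads outside the most abundant and mitochondrial genes (0.0515 and 0.0686), and Taf1d with voom (0.0634).

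Of 20 chaperones that act at the ribosome 0 passed, where 2.91% of all genes were higher and 2.19% lower. With CPM rescaled to all listed reads 4 of the 20 were higher, where 20.9% of all genes were. Of the 77 proteins of the mitochondrial ribosome, a separate set encoded in the nucleus, 1 passed as lower (beside 2.19% of all genes) and 0 as higher. This was Mrps18a, which fell to 18.7 ± 2.47 CPM in ALAS1/2-KO, against 29.3 ± 3.52 CPM in WT (limma adjusted p = 0.0347). With CPM rescaled to all listed reads its log2 fold change was -0.32 (adjusted p = 0.145), and 15 of the 77 were higher and 0 lower, where 20.9% of all genes were higher. It lost its call without ALAS1/2-KO replicate 3 or 4 or any 1 WT library (0.0506 to 0.159). Without the intensity trend in limma none of Mtor, Pabpc4, Riok2, Taf1d and Mrps18a passed (adjusted p = 0.0508 to 0.0716). The median log2 fold change of these 77 genes was -0.05, beside -0.18 for the 84 cytoplasmic ones.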

How the data were processed

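RNA sequencing of isolated mouse hepatocytes gave 4 ALAS1/2-KO and 3 WT libraries, grouped by title and genotype label. Reads were trimmed with cutadapt and aligned with HISAT2 to mm10, per the submitters' processing notes. The sources used here do not name the read counter, the annotation, the strand setting, the rule for reads that match several genes or the scaling method. The authors deposited log2 CPM values for 12151 gene symbols, with a prior of 0.0676 CPM and scaled library sizes. The design assumed log2 CPM, so the deposited values were tested as they stand. Off the log scale, 100% of values were whole reads within 0.01 reads, which gave the depth of each library. CPM values in the text are the deposited ones off the log scale, less the prior. The percentages of paralogs and retrocopies to their parents keep the prior.

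A gene entered the test if it had 1 CPM or more in at least 3 libraries (12105 genes). The test was limma 3.58.1 in R 4.3.3, with intensity trend and robust moderation, two-sided, with Benjamini-Hochberg adjustment over all genes tested. An adjusted p under 0.05 counted as passing, and fold changes are ALAS1/2-KO over WT. The procedure was tested on simulated data. Near-identical copies were found with BLAST+ 2.17.0 as listed genes matching at least 80% of a member's coding sequence at 90% identity or more. Transcript lengths came from 1 transcript per gene of GENCODE M21.

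The members and all gene lists were chosen with earlier results of these data known. Named members were the 4 with the highest and the 4 with the lowest log2 fold change, the 4 most and 3 least abundant per kilobase, Rpsa, the stalk genes, both genes of each paralog pair and the 2 nearest the threshold. From each related list up to 3 passing genes, or the 2 most abundant where none passed, were named. Rpl4, Rps29, Rpl37a, Rpl38, Rpl14, Rpl23, Fau and Gm15772, and the members cited for function, lie outside this rule or were chosen after their values were seen. Some genes that these choices take in are not reported here. Alternatives were another prior, other filters, 3 other scalings, other variance models, limma voom on the recovered reads, a replicate block and leaving out libraries; summing members with their copies was added after seeing the data. The labels do not say whether each library came from its own mouse. The p-values therefore rest on the spread between libraries, which may be technical.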

Additional observations from a re-analysis of the deposited data

Results flagged for a closer look

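Rpl26 in ALAS1/2-KO replicate 3 lay far from the other libraries of its group. It stood at 51.1 CPM there and at 17.2 to 20.3 CPM in the other 3, and 0.91 of the group's range was the gap to the nearest of them, where Dixon's limit for 4 samples is 0.829. In all 45 groups of 4 libraries were examined, and chance flags about 1 in 20.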

How the results depend on the processing

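No setting called a member higher. Members called lower were 2 with scaling by reads outside the 20 most abundant and the mitochondrial genes (Rpl21 and Rplp1, where 2.68% of all genes were lower), 4 with quantile normalization (Rpl37a, Rpl41 and Rplp1 among them, where 3% were) and 21 with array weights (where 8.02% were); the cause was not tested. Leaving out each library in turn gave 0 to 3 members, the 3 without WT replicate 3, and medians of -0.30 to -0.14. In every other setting 0 were called. The members' median reversed to 0.15 only with CPM rescaled to all listed reads. That scaling moves every gene by the ratio of the library sizes, and the median of all genes became 0.32.

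On that scaling the log2 fold changes of these genes also turned positive: Fau 0.053, Rpl10 0.15, Rpl13a 0.16, Rpl14 0.15, Rpl22 0.21, Rpl22l1 0.15, Rpl23 0.19, Rpl30 0.33, Rpl4 0.30, Rpl7 0.17, Rpl7l1 0.19, Rplp0 0.18, Rplp2 0.076, Rps15 0.013, Rps19bp1 0.16, Rps27 0.18, Rps27l 0.33, Rps27rt 0.10, Rps4x 0.068 and Rpsa 0.27. Genes near zero changed sign elsewhere, the cause not tested. Scaling without the most abundant genes gave -0.044 for Rpl31 and -0.026 for Eef2, quantile normalization -0.0074 for Rpl31, -0.018 for Eef1a1 and -0.080 for Eef2, array weights -0.083 for Rpl31, and summing with copies 0.0011 for Rpl30. Without ALAS1/2-KO replicates 1 and 2 together, Rpl31 was -0.092, Rps23rg1 -0.30, Eef1a1 -0.034, Gm15772 -0.085 and the Rpl7l1 to Rpl7 log2 ratio -0.045.

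Leaving out single libraries, Rpl31 ran from -0.026 to 0.077, Rps23rg1 from -0.12 to 0.30, Rpl30 from -0.033 to 0.027, Rpl4 from -0.12 to 0.010, Rps27l from -0.17 to 0.12, Rpsa from -0.13 to 0.012, Rps27rt from -0.46 to 0.052, Eef1a1 from -0.016 to 0.16 and Eef2 from -0.066 to 0.14. The log2 ratio of Rpl7l1 to Rpl7 ran from -0.051 to 0.084 and that of Rpl22l1 to Rpl22 from -0.21 to 0.044.

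With the replicate number as a block, 0 members were called, the median was -0.18 and 72 of all genes passed, against 617 without it. Rps27l turned to 0.065, and Mtor, Pabpc4, Riok2, Taf1d and Mrps18a lost their calls (limma adjusted p = 0.103 to 0.149). ALAS1/2-KO replicate 4 has no WT library of its number, so its block term absorbs it. The fold changes of this fit are therefore those of the fit without that library. Deviations of same-numbered libraries from their group means correlated at -0.03, 0.05 and 0.18. Pairs with different numbers ran from -0.33 to 0.36, so these values cannot tell whether same-numbered libraries belong together. Over all genes the count of calls was 2735 with CPM rescaled to all listed reads, 2001 with array weights, 306 without trend, 1113 without ALAS1/2-KO replicates 1 and 2 together and 56 (without WT replicate 2) to 802 (without ALAS1/2-KO replicate 1) when single libraries were left out.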
